A study of Mus musculus with 12 samples.

Results

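The genes described here are 10 mouse regulators of DNA methylation and polycomb silencing: Dnmt1, Dnmt3a, Dnmt3b, Tet1, Tet2, Tet3, Ezh2, Bmi1, Cbx7 and Asxl1. They were represented by the 26 probe sets, of 45037 on the array, that the platform annotation gives to exactly 1 of these symbols. One gene value was taken per symbol, from its brightest probe set, which made them 10 of 18193 genes. Dnmt3a had 5 probe sets, Tet1 had 4, Dnmt1, Cbx7 and Asxl1 had 3 each, Dnmt3b, Tet2 and Bmi1 had 2 each, and Tet3 and Ezh2 had 1 each.

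DNA methyltransferases add methyl groups to cytosine, Dnmt3a and Dnmt3b at unmethylated sites and Dnmt1 mainly when methylation is copied after replication. TET enzymes oxidise 5-methylcytosine, the first step of active demethylation. Polycomb complexes act on histones: PRC2, through Ezh2, methylates histone H3 at lysine 27, and PRC1, which can hold Bmi1 and Cbx7, reads that mark and ubiquitinates histone H2A. Several of these genes are known for their roles in blood stem cell self-renewal, and DNMT3A, TET2 and ASXL1 are often mutated in human clonal haematopoiesis.

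The study exposed KSL cells (c-Kit+, Sca-1+ and lineage-negative marrow cells, a fraction enriched for stem and progenitor cells) to tumour necrosis factor (TNF) and measured RNA on Affymetrix MOE430 2.0 arrays. There were 12 arrays in 4 groups of 3: Fancc-/- cells with TNF, Fancc-/- cells without it, wild-type cells with TNF and wild-type cells without it. The Fancc protein acts in the Fanconi anaemia pathway of DNA crosslink repair. All cells came from mice aged 2 to 4 months and were cultured for 24 hours in 10% serum with growth factors: IL-11 and SCF at 10 ng/ml each, IL-6 at 20 ng/ml and Flt3L at 50 ng/ml. The treated cells also received TNF at 10 ng/ml from plating. RNA was amplified from 5 to 15 ng of total RNA. The labels do not say whether the replicates of a group came from separate mice, so the p-values measure the spread between these arrays, which may be partly technical.

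All values are on a log2 scale, so a difference of 1 is a doubling. Kit (9.95 to 10.77 over the 12 arrays) and the progenitor marker Cd34 (12.81 to 13.13) were bright, while Cd3e, which marks T cells, lay between 3.13 and 3.69. The myeloid genes Mpo (11.83 to 13.69) and Elane (7.05 to 12.62) were also bright on many arrays. Sca-1 (Ly6a) had no gene value here, so these values do not check the sorted population fully. The Fancc probe set was not lower on the Fancc-/- arrays, at 8.73 to 9.16, than on the wild-type arrays, at 8.22 to 8.65. Where that probe set lies relative to the disrupted exons is not stated in the labels, so it does not check them, and the groups are called mutant-labelled and wild-type-labelled below. The arrays also differed in sex-linked transcripts: Xist was at 5.47 or lower on 3 arrays, all untreated (1 mutant-labelled, 2 wild-type-labelled), Eif2s3y was at 4.16 or lower on 2 others, and the other 7 arrays had signal for both. Within every group but mutant-labelled TNF the arrays differed in these signals, so the replicates of those groups were not all repeats of the same RNA.

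TNF treatment went with higher Cbx7, Tet1 and Dnmt3a signals. Averaged over genotype, 3 of the 10 genes passed an adjusted p of 0.05 in limma, all higher with TNF: Cbx7 by 1.29 (2.45-fold), Tet1 by 0.74 (1.67-fold) and Dnmt3a by 0.32 (1.24-fold). Of all 18193 genes, 12.1% passed, and 5.81% passed with a higher value. The median difference was 0.02 over the 10 genes and -0.03 over all genes. Among single probe sets, 10 of 26 passed, 9 higher and 1 lower, against 7.41% of all probe sets (3.8% higher and 3.61% lower). The 9 higher ones were all 5 of Dnmt3a, 2 of the 4 of Tet1 and 2 of the 3 of Cbx7, and the lower one belonged to Dnmt3b. No gene of the 10 passed in a comparison between genotypes.

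**Figure D1:**
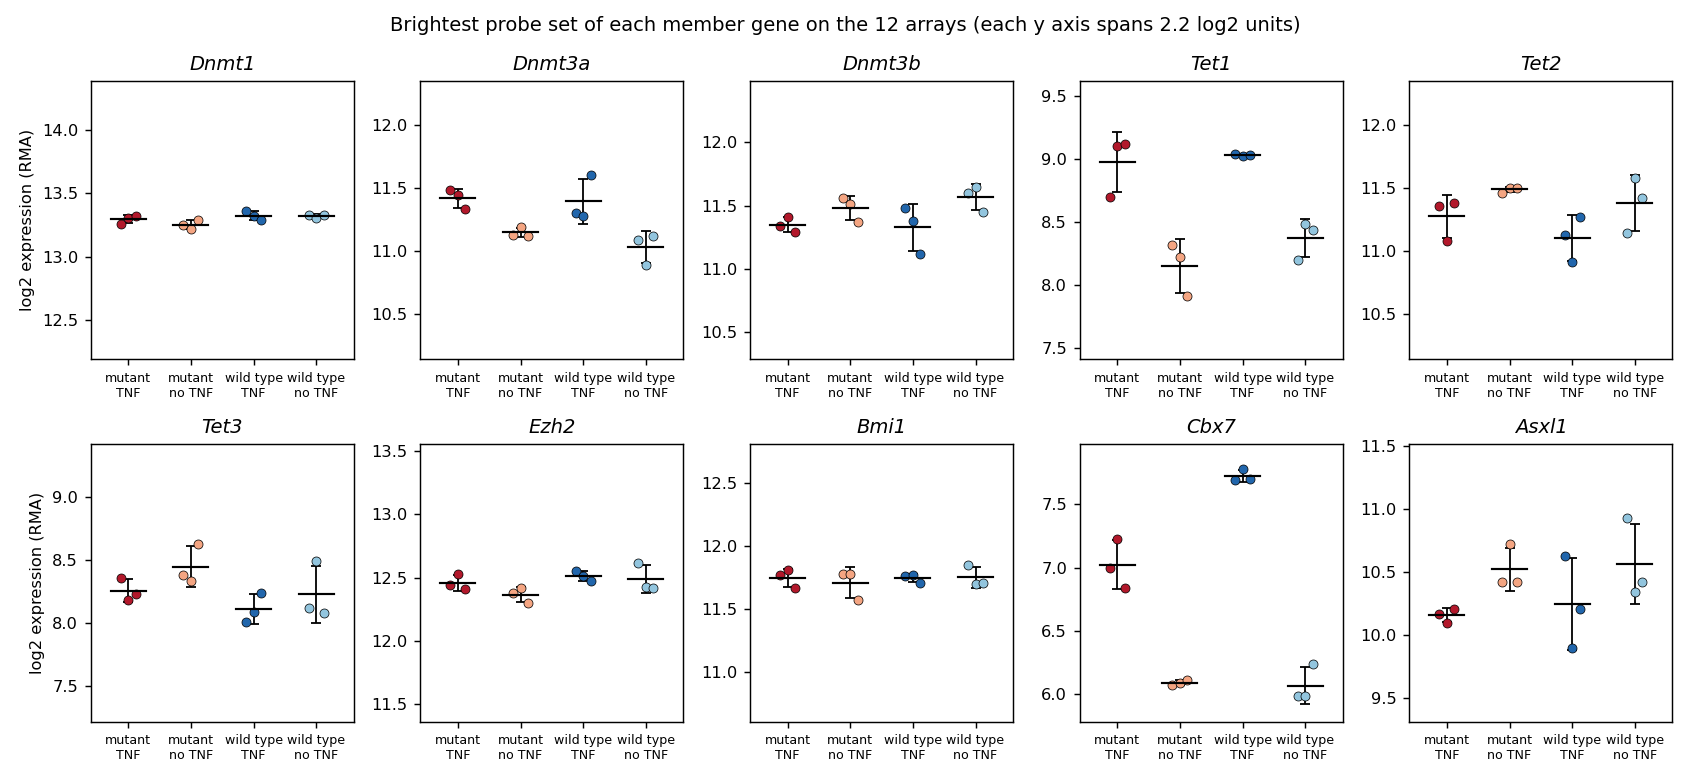
Log2 signal of each of the 10 genes on the 12 arrays (1 panel per gene, 1 point per array; long lines are group means and error bars SD, n = 3). Cbx7 reached 6.84 to 7.23 on mutant-labelled and 7.69 to 7.78 on wild-type-labelled TNF arrays, against 5.98 to 6.24 without TNF.

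The promoter windows of the 3 genes that passed are shown because these are the genes whose signal moved together with TNF, and that of Ezh2 because it is the main catalytic subunit of PRC2 and did not pass. Each window runs from 250 bases before to 50 bases after a RefSeq gene start on GRCm38.p6 and is written 5' to 3' on the gene's strand. All 10 genes matched RefSeq, with 14 windows among 32851. The Cbx7 window lies at chr15:79932597-79932896 on the minus strand, the Tet1 window at chr10:62887275-62887574 on the minus strand, the upstream and downstream of 3 Dnmt3a windows at chr12:3806730-3807029 and chr12:3891494-3891793 on the plus strand, and the Ezh2 window at chr6:47594981-47595280 on the minus strand. The middle Dnmt3a window, at chr12:3806910-3807209, overlaps the upstream one and is not shown. Capitals mark the GC box letters GGGCGG on either strand in Cbx7, Tet1 and Dnmt3a, and the E2F letters TTTGGCGC in Ezh2.
Cbx7: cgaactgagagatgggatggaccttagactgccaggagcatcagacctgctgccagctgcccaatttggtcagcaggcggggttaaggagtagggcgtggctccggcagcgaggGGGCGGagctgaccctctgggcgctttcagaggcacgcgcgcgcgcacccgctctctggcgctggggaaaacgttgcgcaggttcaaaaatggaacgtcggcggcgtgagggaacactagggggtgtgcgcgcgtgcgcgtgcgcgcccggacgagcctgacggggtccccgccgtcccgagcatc
Tet1: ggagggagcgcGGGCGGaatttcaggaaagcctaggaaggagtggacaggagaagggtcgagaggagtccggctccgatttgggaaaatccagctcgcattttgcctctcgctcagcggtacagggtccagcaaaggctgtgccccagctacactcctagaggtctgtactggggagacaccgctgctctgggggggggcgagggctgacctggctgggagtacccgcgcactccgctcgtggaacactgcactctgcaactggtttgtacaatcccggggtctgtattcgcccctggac
Dnmt3a, upstream window: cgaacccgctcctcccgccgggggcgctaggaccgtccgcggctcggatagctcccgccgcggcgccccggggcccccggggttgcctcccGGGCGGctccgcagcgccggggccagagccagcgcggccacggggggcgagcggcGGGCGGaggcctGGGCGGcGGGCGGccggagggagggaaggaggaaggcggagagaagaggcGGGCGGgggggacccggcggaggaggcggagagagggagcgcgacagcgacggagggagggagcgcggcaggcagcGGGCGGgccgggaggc
Dnmt3a, downstream window: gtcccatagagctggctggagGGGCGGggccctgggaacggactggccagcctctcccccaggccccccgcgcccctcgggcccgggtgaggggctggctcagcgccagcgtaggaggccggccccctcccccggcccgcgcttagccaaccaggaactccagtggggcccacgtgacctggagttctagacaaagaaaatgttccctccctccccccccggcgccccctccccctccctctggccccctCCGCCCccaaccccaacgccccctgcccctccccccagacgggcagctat
Ezh2: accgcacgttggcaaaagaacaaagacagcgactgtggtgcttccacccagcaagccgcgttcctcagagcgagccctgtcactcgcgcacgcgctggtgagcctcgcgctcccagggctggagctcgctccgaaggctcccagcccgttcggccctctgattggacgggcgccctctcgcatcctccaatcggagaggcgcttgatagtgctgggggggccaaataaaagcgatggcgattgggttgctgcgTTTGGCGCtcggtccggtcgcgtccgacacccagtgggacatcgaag

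These windows held more CpG, the dinucleotide that DNA methyltransferases act on, than the median of 7 over all windows: 33 in Cbx7, 17 in Tet1, 46, 47 and 18 in the upstream, middle and downstream Dnmt3a windows and 31 in Ezh2. Searched on either strand, the GC box letters were in 11 of the 14 windows of the 10 genes, against 35.7% of all windows. The 14 windows had 51.3% to 82.3% G and C, and they were not compared with windows of like base composition. TTTGGCGC was in 2 of the 14 (Ezh2 and 1 of Dnmt1), against 0.514% of all windows, and TTTCCCGC in 0 of the 14, against 1.07%. CACGTG, an E-box, was in 2 of the 14 (Bmi1 and the downstream Dnmt3a window), against 7.15%. The NF-kB consensus, the motif of the transcription factor family that TNF activates, was in 1 of the 14 (Asxl1), against 4.51%. Windows of 1 gene can overlap and are not independent. These are matches of letters in a short window, not binding measurements.

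Dnmt3a, a de novo methyltransferase, was higher with TNF on every one of its probe sets. Its brightest probe set read 11.48, 11.44 and 11.33 on mutant-labelled TNF arrays, against 11.13, 11.19 and 11.12 on untreated ones. It read 11.30, 11.28 and 11.60 on wild-type-labelled TNF arrays, against 11.09, 10.89 and 11.12 on untreated ones. The 6 TNF arrays all lay above the 6 untreated arrays, a separation seen in 7.91% of all genes in either direction. The difference averaged over genotype was 0.32 (SE 0.07, adjusted p = 0.0148). Within a genotype it did not pass on this probe set, at 0.27 (adjusted p = 0.189) in mutant-labelled and 0.36 (adjusted p = 0.0698) in wild-type-labelled cells. With Xist and Eif2s3y as covariates the average was 0.30 and no longer passed (adjusted p = 0.0644).

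The other 4 Dnmt3a probe sets gave larger TNF differences, of 0.52, 0.69, 0.47 and 0.47 averaged over genotype, all past the threshold. With Xist and Eif2s3y as covariates the 2 dimmest no longer passed, 1423065_at at 0.26 (adjusted p = 0.268) and 1423066_at at 0.33 (adjusted p = 0.235). Each of these 2 also missed the threshold without any 1 of 5 arrays, with adjusted p between 0.0516 and 0.0661. Probe sets 1423063_at and 1460324_at also passed within each genotype: the first rose by 0.45 in mutant-labelled (adjusted p = 0.0214) and 0.60 in wild-type-labelled cells (adjusted p = 0.00383), the second by 0.73 (adjusted p = 0.00535) and 0.65 (adjusted p = 0.0091). With the covariates, 1423063_at in mutant-labelled cells (0.51, adjusted p = 0.0589) and 1460324_at in wild-type-labelled cells (0.60, adjusted p = 0.0885) no longer passed, and 1423063_at also missed there without any 1 of 5 arrays (adjusted p 0.0522 to 0.0826). The mean of the 5 probe sets rose by 0.51 in mutant-labelled cells (adjusted p = 0.00323) and by 0.47 in wild-type-labelled cells (adjusted p = 0.00493). The brightest probe set therefore gave the smallest difference of the 5.

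Dnmt3b, the other de novo methyltransferase, had estimates below 0. Its brightest probe set averaged 11.34 ± 0.12 with TNF and 11.53 ± 0.10 without it (SD, n = 6 each), a difference of -0.19 that did not pass (adjusted p = 0.125). Its second probe set, 1418351_a_at, averaged 8.59 ± 0.22 with TNF and 9.04 ± 0.13 without it (SD, n = 6 each) and fell by 0.45 (SE 0.11, adjusted p = 0.0303), with no overlap between the 6 TNF and 6 untreated arrays, as for 5.54% of all probe sets. That call was lost with the covariates (-0.55, adjusted p = 0.0602) and without any 1 of 7 of the arrays (adjusted p 0.0578 to 0.0681). The mean of both probe sets gave -0.32 (adjusted p = 0.0187). Neither probe set passed within a genotype.

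Dnmt1, the maintenance methyltransferase, stayed between 13.22 and 13.36 on all 12 arrays on its brightest probe set. Its TNF difference averaged over genotype was 0.02 there, with a 95% interval of -0.07 to 0.11 before any adjustment for the number of genes. Probe sets 1447877_x_at and 1422946_a_at ranged more widely, from 11.95 to 12.41 and from 11.84 to 12.2. They gave TNF differences of 0.10 and -0.03, which did not pass. Uhrf1, which recruits Dnmt1 to newly replicated DNA, averaged 13.19 with TNF and 13.11 without it, a difference of 0.08 (adjusted p = 0.294).

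**Figure D2:**
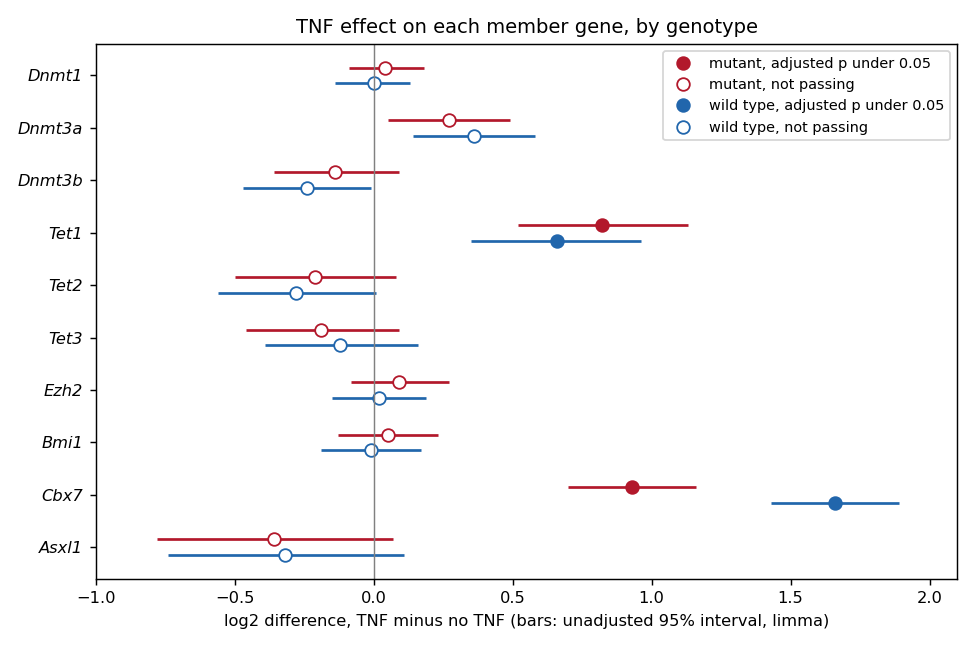
TNF effect (log2 difference, TNF minus no TNF) on each of the 10 genes, mutant-labelled above wild-type-labelled; bars are unadjusted 95% intervals from limma and filled points passed an adjusted p of 0.05. The filled points are Tet1 and Cbx7, each in both genotypes.

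Tet1, a 5-methylcytosine dioxygenase, rose with TNF in both genotypes. It read 8.70, 9.10 and 9.12 on mutant-labelled TNF arrays, against 8.32, 8.22 and 7.91 on untreated ones. It read 9.04, 9.02 and 9.03 on wild-type-labelled TNF arrays, against 8.20, 8.48 and 8.44 on untreated ones. No untreated array reached the lowest TNF array, a separation seen in 7.91% of all genes in either direction. The rise was 0.82 (1.77-fold, SE 0.14, adjusted p = 0.00678) in mutant-labelled cells and 0.66 (1.58-fold, SE 0.14, adjusted p = 0.0207) in wild-type-labelled cells. The wild-type call was lost when any 1 of 5 of the 6 arrays in that comparison was left out, with adjusted p between 0.0517 and 0.071, and with Xist and Eif2s3y as covariates (0.70, adjusted p = 0.102). A second probe set, 1429448_s_at, rose by 0.55 averaged over genotype (adjusted p = 0.0101; 0.56 and 0.086 with the covariates), and the 2 dimmer ones gave 0.53 (adjusted p = 0.0771) and 0.18 (adjusted p = 0.166).

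Tet2 and Tet3, which carry out the same reaction, did not pass, and both estimates were below 0. Tet2 averaged 11.19 ± 0.18 with TNF and 11.43 ± 0.16 without it (SD, n = 6 each), a difference of -0.24 (95% interval -0.45 to -0.04, adjusted p = 0.12). Tet3 averaged 8.18 ± 0.12 with TNF and 8.34 ± 0.21 without it, a difference of -0.15 (95% interval -0.35 to 0.04, adjusted p = 0.308). On mutant-labelled arrays the Tet2 values with TNF, 11.08 to 11.38, lay below those without it, 11.46 to 11.50, as for 26.2% of all genes in either direction, whereas on wild-type-labelled arrays they overlapped. Without untreated wild-type-labelled replicate 1, which read 11.14, the Tet2 difference averaged over genotype was -0.31 and passed (adjusted p = 0.0404). It did not pass on leaving out any other array. With Xist and Eif2s3y as covariates it was -0.24 (adjusted p = 0.315). The second Tet2 probe set, 1438781_at, gave -0.21 averaged over genotype (adjusted p = 0.526).

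Ezh2, the histone H3 lysine 27 methyltransferase of PRC2, and Bmi1, a PRC1 ring-finger subunit, showed no TNF difference past the test. Intervals were narrow for Ezh2 and for the brightest Bmi1 probe set. Ezh2 averaged 12.49 ± 0.05 with TNF and 12.43 ± 0.11 without it (SD, n = 6 each), with an interval for the difference of -0.07 to 0.18. Bmi1 averaged 11.75 ± 0.05 with TNF and 11.73 ± 0.10 without it (SD, n = 6 each), with an interval of -0.11 to 0.15. The second Bmi1 probe set, 1448733_at, gave a difference of 0.06 with a wider interval, -0.19 to 0.3. Asxl1, a chromatin adaptor that binds the H2A deubiquitinase Bap1, averaged 10.20 ± 0.24 with TNF and 10.54 ± 0.23 without it (SD, n = 6 each). That difference of -0.34 did not pass (adjusted p = 0.144), and the other 2 Asxl1 probe sets gave 0.02 and -0.08. Without wild-type-labelled TNF replicate 1, which read 10.63, the Asxl1 difference was -0.43 and passed (adjusted p = 0.0447). It did not pass on leaving out any other array. With Xist and Eif2s3y as covariates it was -0.30 (adjusted p = 0.419), and the mean of the Asxl1 probe sets gave -0.13 (adjusted p = 0.279).

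**Figure D3:**
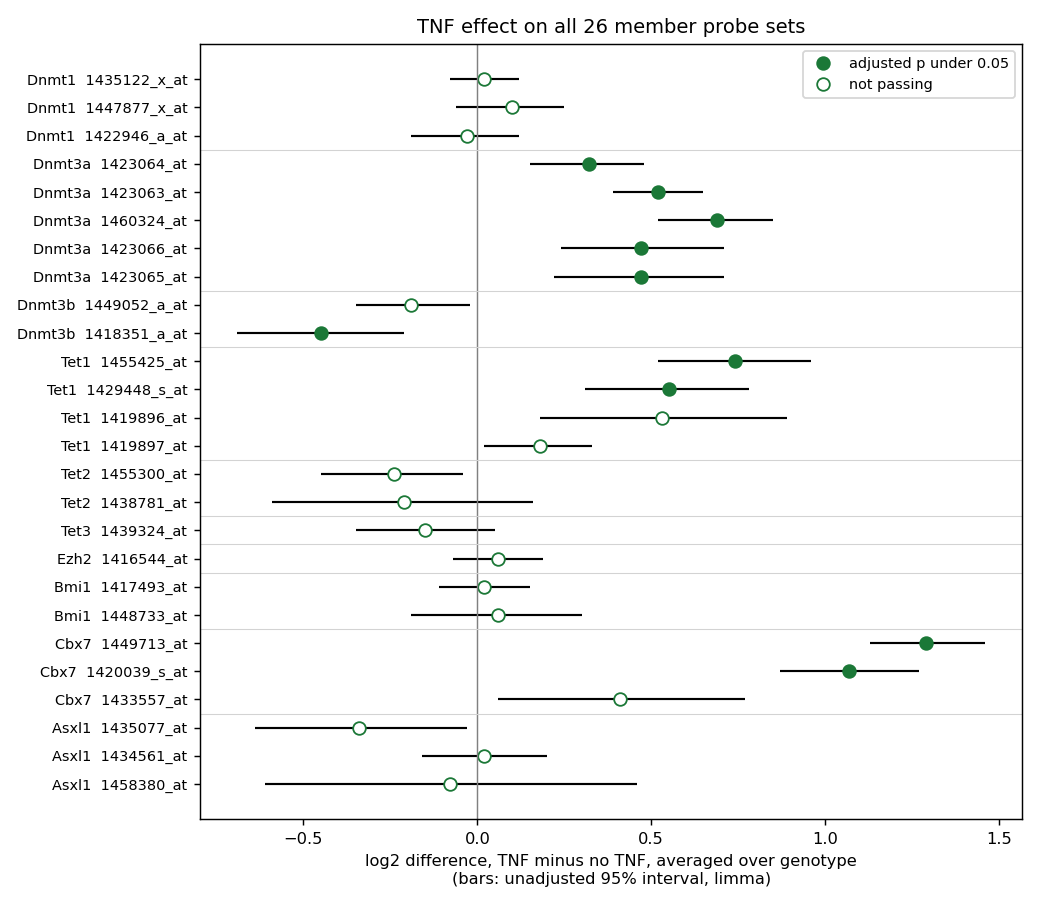
TNF effect averaged over genotype (log2 difference, TNF minus no TNF) on each of the 26 probe sets, grouped by gene; bars are unadjusted 95% intervals from limma and filled points passed an adjusted p of 0.05 over all 45037 probe sets. All 5 Dnmt3a probe sets lie to the right of 0 and both of Dnmt3b to the left.

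Cbx7, a chromodomain subunit through which PRC1 binds methylated H3 lysine 27, gave the largest TNF difference of the 10 genes. Its brightest probe set, 1449713_at, read 7.0, 7.23 and 6.84 on mutant-labelled TNF arrays, against 6.07, 6.09 and 6.11 on untreated ones. It read 7.69, 7.78 and 7.70 on wild-type-labelled TNF arrays, against 5.98, 5.98 and 6.24 on untreated ones. On this probe set the 4 groups therefore lay at 3 levels. The low level was shared by both untreated groups, the intermediate one was in mutant-labelled TNF cells and the high one in wild-type-labelled TNF cells. The step between the TNF groups did not pass in limma (-0.70, adjusted p = 0.121), and on 1433557_at it was -0.06. The untreated values of 1449713_at lay close to 6.02, the median of all deposited values. Cbx7 rose by 0.93 (1.91-fold, SE 0.10, adjusted p = 0.000546) in mutant-labelled cells and by 1.66 (3.15-fold, SE 0.10, adjusted p = 1.28e-05) in wild-type-labelled cells.

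Within each genotype, Cbx7 and Tet1 were the genes that passed, 2 of 10 in mutant-labelled cells, where 4.31% of all genes passed, and 2 of 10 in wild-type-labelled cells, where 5.02% passed. Of the 26 probe sets, 5 passed in mutant-labelled cells (2.09% of all probe sets) and 6 in wild-type-labelled cells (2.58%). Probe set 1420039_s_at also rose in both genotypes, by 0.78 in mutant-labelled cells (adjusted p = 0.0104; 0.81 and 0.0662 with the covariates) and by 1.35 in wild-type-labelled cells (adjusted p = 0.000342). The third Cbx7 probe set, 1433557_at, gave 0.55 (adjusted p = 0.326) in mutant-labelled cells and 0.28 (adjusted p = 0.635) in wild-type-labelled cells. Its untreated arrays spread from 5.72 to 6.73, more than those of the other 2 Cbx7 probe sets. The 7 arrays with both Xist and Eif2s3y signal were 3 mutant-labelled with TNF, 1 mutant-labelled untreated, 2 wild-type-labelled with TNF and 1 wild-type-labelled untreated, so each untreated group there was a single array, assumed to vary like the others. Averaged over genotype, these arrays gave 1.21 for Cbx7 (adjusted p = 0.0184), 0.83 for Tet1 (adjusted p = 0.059) and 0.24 for Dnmt3a (adjusted p = 0.212).

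Between genotypes, none of the 10 genes passed in limma, untreated or with TNF, and 0.0055% of all genes passed in each comparison. At an unadjusted p under 0.05 there were 0 of 10 untreated, where 4.12% of all genes lay, and 1 of 10 with TNF, where 5.6% lay. Averaged over treatment 0 of 10 passed, against 0.022% of all genes, and 1 had an unadjusted p under 0.05, against 7.39%. In both cases that gene was Cbx7. It averaged 7.03 ± 0.19 in mutant-labelled TNF cells and 7.72 ± 0.05 in wild-type-labelled TNF cells (SD, n = 3 each), a difference of -0.70 (SE 0.10, adjusted p = 0.121). The groups did not overlap, as for 11% of all genes. Probe set 1420039_s_at gave -0.72 (adjusted p = 0.227) and 1433557_at gave -0.06.

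The TNF effect on Cbx7 was smaller by 0.72 in mutant-labelled than in wild-type-labelled cells (95% interval -1.05 to -0.40, unadjusted p = 0.000512, adjusted p = 1). Of all 18193 genes 0 passed in this comparison of effects (0%), and 2.9% had an unadjusted p under 0.05. Over the alternatives the genotype difference with TNF ran between -0.80 and -0.49, with adjusted p between 0.0449 and 0.582. It passed in 2 of the 22 alternatives. These were array weights (-0.71, adjusted p = 0.0465) and leaving out mutant-labelled TNF replicate 2 (-0.80, adjusted p = 0.0449), which at 7.23 was the highest array of its group. Of the other Cbx7 probe sets, 1420039_s_at gave an effect difference in the same direction (-0.57), whereas 1433557_at gave one of 0.27. Without TNF, the genotypes differed by 0.03 in Cbx7 (95% interval -0.20 to 0.26).

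**Figure D4:**
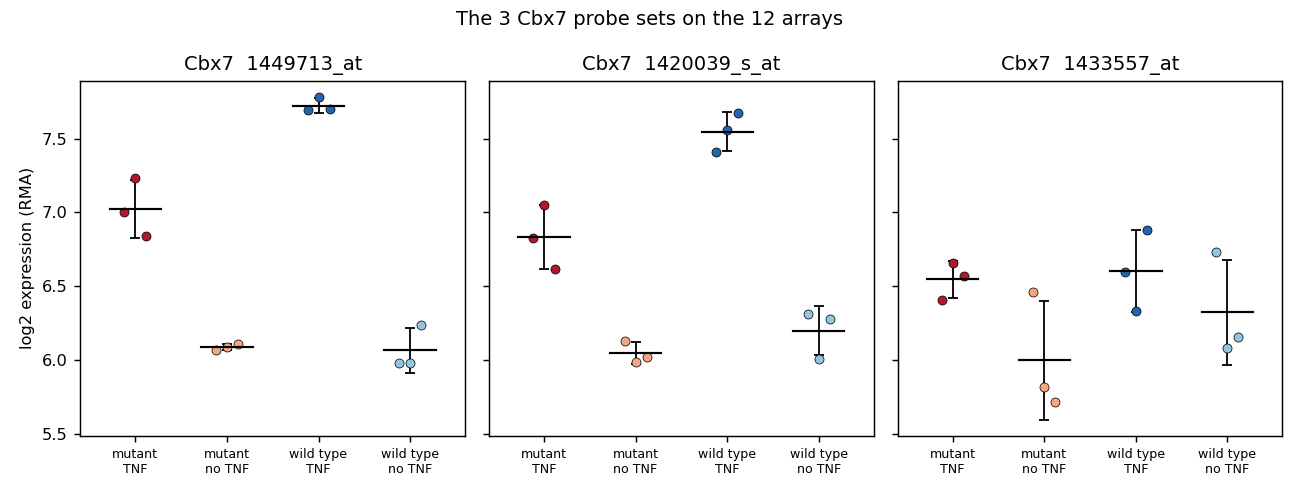
Log2 signal of the 3 Cbx7 probe sets on the 12 arrays (1 panel per probe set, 1 point per array; long lines are group means and error bars SD, n = 3). On 1449713_at and 1420039_s_at the mutant-labelled TNF arrays lie between the untreated and the wild-type-labelled TNF arrays, and on 1433557_at the groups overlap.

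Markers of maturing myeloid cells moved with these differences. Of 15 granulocyte marker genes, 12 fell with TNF averaged over genotype and none rose, with a median difference of -2.26. The 6 with the largest falls were Mmp8 (-4.92), Elane (-3.54), S100a9 (-2.71), Ngp (-2.57), Cxcr2 (-2.53) and Ltf (-2.49). Their mean level per array was 8.23 to 9.46 on mutant-labelled TNF arrays, 10.48 to 10.80 on mutant-labelled untreated arrays, 7.81 to 8.57 on wild-type-labelled TNF arrays and 9.97 to 10.41 on wild-type-labelled untreated arrays. Of 12 monocyte and macrophage markers, 7 fell, F13a1 the most (-4.46), and 1 rose, Cx3cr1 (2.02), and their mean level was 9.27 to 10.50 on mutant-labelled TNF arrays and 9.21 to 9.50 on wild-type-labelled TNF arrays. On mutant-labelled TNF replicates 1, 2 and 3 the granulocyte mean was 9.21, 8.23 and 9.46, and Cbx7 read 7.0, 7.23 and 6.84. On wild-type-labelled TNF replicates 1, 2 and 3 the granulocyte mean was 7.81, 8 and 8.57, and Cbx7 read 7.69, 7.78 and 7.7. In bulk RNA, fewer cells of a type and less RNA per cell cannot be told apart, and the part of these markers in the Cbx7, Tet1 and Dnmt3a differences was not tested. Of 12 lymphoid markers 2 rose, Thy1 (2.33) and Rag1 (2.12), and 2 fell, Nkg7 (-1.62) and Cd79a (-0.40). Of 10 erythroid and megakaryocyte markers 4 fell, Klf1 (-0.65), Gp1bb (-0.46), Gp9 (-0.41) and Tfrc (-0.23), and of 15 KSL markers 1 rose, Procr (1.48, adjusted p = 0.00565), a surface receptor of stem cells. All 7 genes of a TNF response check rose, by 0.39 (Icam1) to 3.64 (Tnfaip3).

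Among the partners of the 10 genes, the calls were mostly upward. Of all genes, 12.1% passed with TNF averaged over genotype, and 5.81% passed with a higher value. Of 12 PRC2 genes, 2 rose with TNF averaged over genotype, with a median of 0.12: Phf19 (0.51, adjusted p = 0.00413), a Polycomb-like accessory subunit, and Aebp2 (0.25, adjusted p = 0.0182), an accessory subunit of another PRC2 form. The core subunits Eed (0.15, adjusted p = 0.131) and Suz12 (0.02, adjusted p = 0.847) did not pass. Of 20 PRC1 genes, 4 rose, with a median of 0.04: Phc1 (0.56, adjusted p = 0.0304), a polyhomeotic subunit, Yaf2 (0.34, adjusted p = 0.00357), a partner of the Ring1 proteins, Cbx6 (0.33, adjusted p = 0.00209), a chromodomain protein related to Cbx7, and Pcgf5 (0.16, adjusted p = 0.0493), a ring-finger protein related to Bmi1. Cbx2 (0.08) and Cbx8 (-0.21), also chromodomain subunits, did not pass. No PRC2 or PRC1 gene passed with a lower value, as 1150 of all 18193 genes did.

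Of 17 readers and cofactors of DNA methylation, 1 rose, Mbd4 (0.35, adjusted p = 0.0348), a glycosylase that repairs deaminated methylated sites, with a median of 0.04. Of 13 partners of active demethylation, 1 fell, Gadd45g (-0.81, adjusted p = 0.00818), a stress-response protein, with a median of -0.04. None of 9 Asxl and deubiquitinase partners passed, with a median of 0.04; those with the smallest p were Kdm1b (0.39, adjusted p = 0.0861) and Asxl2 (0.16, adjusted p = 0.271), and Bap1 gave -0.03 (adjusted p = 0.892). Of 18 trithorax and demethylase genes, which oppose or modify polycomb marks, 3 rose and 1 fell, with a median of 0.05: Kmt2a (0.34, adjusted p = 0.0202), a histone H3 lysine 4 methyltransferase, Kdm5c (0.32, adjusted p = 0.0476) and Kdm1a (0.21, adjusted p = 0.038), which remove that methylation, and Dpy30 (-0.16, adjusted p = 0.0351), a subunit shared by the methyltransferase complexes. Against 12.1% of all genes, these shares describe the lists and single none of them out. The arrays low in Xist were all untreated. The part of sex-linked differences in the values of these lists, Kdm5c among them, was not tested.

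Among 18 polycomb targets and cell cycle inhibitors, 2 rose and 1 fell averaged over genotype, with a median of 0.01. For each count in this paragraph, the share over all genes was 12.1% in either direction. Hoxa10, a homeobox gene of the stem and progenitor programme, averaged 10.49 with TNF and 9.52 without it (0.97, adjusted p = 0.00243). Ebf1, a B-lineage transcription factor, averaged 6.18 with TNF and 5.01 without it (1.17, adjusted p = 0.0278). Its untreated mean lay below 6.02, the median of all deposited values. Cdkn1a, which encodes the cyclin-dependent kinase inhibitor p21, averaged 10.51 with TNF and 11.45 without it (-0.94, adjusted p = 0.000275). Cdkn2a, the inhibitor locus repressed by Bmi1 and Cbx7 in other cells, read 4.60 with TNF and 4.70 without it (adjusted p = 0.531), below the median of all values. Of 13 further genes mutated in clonal haematopoiesis, 1 rose, the kinase gene Jak2 (0.80, adjusted p = 7.52e-05). Of 24 genes of S phase and mitosis, 1 fell, the replication licensing gene Cdc6 (-0.24, adjusted p = 0.0408), with a median of 0. No gene of these lists passed in a comparison between genotypes.

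**Figure D5:**
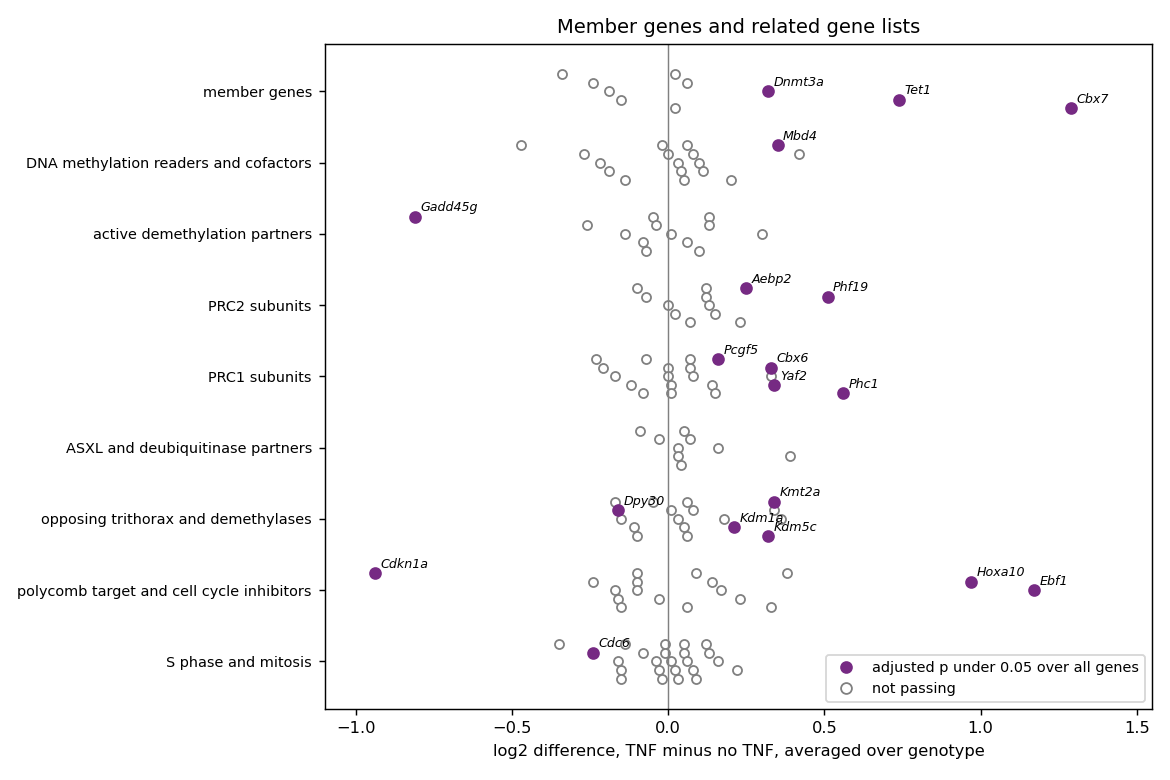
TNF effect averaged over genotype (log2 difference, TNF minus no TNF) on the 10 genes (top row) and on each gene of 8 lists of partners, targets and cell cycle genes, 1 row per list and 1 point per gene; filled points passed an adjusted p of 0.05. Hoxa10 and Ebf1 lie farthest right and Cdkn1a and Gadd45g farthest left among the filled partners and targets.

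The genes most like the 3 that passed were found from the root mean square difference between mean-centred profiles over the 12 arrays, a measure that includes the TNF response and so describes it again. Those nearest to Cbx7 were Ffar2 (0.20), a short-chain fatty acid receptor, P2rx4 (0.21), an ATP-gated channel, and Prrg1 (0.23), while the Cbx7 profile itself had a root mean square of 0.70. Those nearest to Tet1 were Hivep1 (0.11), a zinc-finger transcription factor, Atat1 (0.14), a tubulin acetyltransferase, and Manea (0.14), a mannosidase. Those nearest to Dnmt3a were Myo15b, Glipr2 and Ski (0.10 each), of which Ski is a corepressor of TGF-beta signalling. With TNF, Ffar2 differed between genotypes by -0.27, P2rx4 by -0.29 and Prrg1 by -0.38, beside -0.70 for Cbx7.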

How the data were processed

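The deposited values are log2 signals per probe set, made by the authors with RMA as listed in the submitters' processing notes (no version is listed there). That they are on base 2 was judged from their spread, 2.14 to 14.55. RMA sets all arrays to a shared distribution, so every difference is relative to the other genes. Groups came from the sample labels. Of 45101 probe sets, 64 controls were left out, 34945 had 1 gene symbol in the platform annotation, 932 had several and 9160 were not listed there. Group means were fitted to all 12 arrays at once with limma 3.58.1 in R 4.3.3 (lmFit, eBayes), without a replicate block, over 18193 genes and over 45037 probe sets, and p-values were adjusted by Benjamini-Hochberg over all genes or all probe sets in each of 7 comparisons. "Averaged over genotype" is the mean of the TNF effects in both genotypes. The number of arrays limits precision.

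The members and the 15 gene lists were chosen with earlier results of these data known. The text names all members, up to 6 genes of a list that passed, by size (of the 12 monocyte and 7 TNF response genes just the extremes), or the 2 with the smallest p where none did, and the 3 genes nearest to each member that passed, skipping predicted genes. Uhrf1, Eed, Suz12, Cbx2, Cbx8, Bap1 and Cdkn2a lie outside this rule and were named after their values were seen. A filter on low values (3 or more arrays above the gene median) kept all 10 members, Cbx7 through just 3 arrays, those of the wild-type-labelled TNF group. The other alternatives were probe-set averaging, scalings, variance settings, sex-linked covariates, a 2-fold minimum and leaving out arrays. The use of 7 arrays with both sex-linked signals was chosen after seeing the data. The fit was tested on simulated data. Deviations from the group means correlated at -0.16 to 0.28 between same-numbered arrays (7 of 18 pairs over 0.1) and at -0.33 to 0.18 between others (6 of 36 over 0.1). Since not every same-numbered pair passed 0.1, the numbers were not treated as pairs. That rule is strict and does not show that the arrays were unpaired. Counts with the replicate number as a block are given at the end.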

Additional observations from a re-analysis of the deposited data

How the results depend on the processing

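No difference changed sign among those that passed. The number of the 10 genes that passed with TNF was 2 in mutant-labelled cells, 0 on the 7 arrays with both sex-linked signals and 0 with a 2-fold minimum, and 3 with the mean of probe sets (Dnmt3a added). It was 2 in wild-type-labelled cells, 1 with Xist and Eif2s3y as covariates, 0 on the 7 arrays and 1 with a 2-fold minimum; it was 3, with Dnmt3a, under the low-value filter, the mean of probe sets, trended and robust moderation, or array weights. Averaged over genotype it was 3, 2 with the covariates, 1 on the 7 arrays, 1 with a 2-fold minimum and 4 with the mean of probe sets (Dnmt3b added). Of the 26 probe sets, 5 passed in mutant-labelled cells, 3 when fitted on only the groups compared, 2 with the covariates, 0 on the 7 arrays and 0 with a 2-fold minimum. In wild-type-labelled cells 6 passed, then 3, 3, 0 and 2 under these settings. Averaged over genotype 10 passed, 5 with the covariates, 1 on the 7 arrays and 2 with a 2-fold minimum. Between genotypes with TNF 0 genes passed, and 1 with array weights (Cbx7). Leaving out 1 array at a time gave 2 to 2 genes in mutant-labelled cells, 1 to 2 in wild-type-labelled cells, 3 to 4 averaged over genotype, 0 to 1 between genotypes with TNF and 0 to 0 in the other comparisons; for probe sets it gave 3 to 5, 4 to 6, 6 to 10 and 0 to 0.

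Over all genes, 784 passed with TNF in mutant-labelled and 913 in wild-type-labelled cells, and 2207 averaged over genotype; on only the groups compared 523 passed in wild-type-labelled cells. With the covariates these counts were 452, 410 and 1270, and on the 7 arrays, with 1 untreated array per genotype, 59, 39 and 444. Leaving out 1 array gave 444 to 951, 474 to 957 and 1598 to 2225. Averaged over genotype, 1057 genes were higher and 1150 lower, against 852 and 1419 after median centring. Fewer arrays or genes tested can lower such counts; other causes were not tested. With the replicate number as a block, the counts of member genes were 2, 2 and 3 with TNF in mutant-labelled cells, in wild-type-labelled cells and averaged over genotype, and 0 between genotypes; the counts of probe sets were 5, 4 and 10.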
